A study of Mus musculus with 6 samples.

Results

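The genes described here are 10 feedback inhibitors and response genes of the ERK mitogen-activated protein kinase pathway, namely Dusp4, Dusp5, Dusp6, Dusp7, Spry1, Spry2, Spry4, Spred1, Spred2 and Phlda1. They were taken by symbol from a deposited matrix of 24982 gene rows, where each had 1 row, and all 10 were among the 12310 genes that passed the filter on low counts. Poly(A) RNA had been sequenced in 6 libraries of sorted keratinocytes, 3 from the denervated left and 3 from the normal right back skin of the same 3 mice, numbered 890, 892 and 899. On the denervated side the cutaneous nerves had been dissected out 4 weeks before sampling. On the normal side they had been left in place after the same midline incision, and the protocol describes no sham dissection there. Denervation, the dissection itself and left against right therefore cannot be told apart. All animals carried the Lgr6-EGFP-Ires-CreERT2 knock-in allele together with R26loxP-stop-loxP-tdTom, a reporter that turns on tdTomato after recombination, and all received 20 µg of tamoxifen on postnatal day 42. Cre is driven from the Lgr6 locus, so tdTomato marks cells that expressed Lgr6 when tamoxifen was given, with their descendants. The series' design names sorting for GFP, tdTomato and Itga6 (CD49f), an integrin of basal keratinocytes. Age at surgery and sex of the mice are not stated in the labels.

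Growth factors such as those of the EGF and FGF families bind receptor tyrosine kinases, which act through Ras, Raf and MEK to phosphorylate the kinases ERK1 and ERK2. Active ERK drives transcription of its own inhibitors. The dual-specificity phosphatases of the Dusp family remove the activating phosphates from ERK, while Sprouty (Spry) and Spred proteins act further upstream, between receptor and Raf. In epidermis the pathway is known for its part in proliferation, migration and wound repair of keratinocytes. The data hold mRNA levels of these inhibitors and no measure of ERK phosphorylation.

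Library totals ran from 9610071 to 14021730 counts on the denervated side and from 13801154 to 26167593 on the normal side, and were lower on the denervated side in each of the 3 animals. The denervated library of animal 890 was the smallest. On the leading principal component, which held 36.5% of the variance between libraries, it scored −37.6 while the others scored between −9.73 and 24.5. The 8 basal keratinocyte markers, Krt5, Krt14 and Lgr6 among them, summed to between 45286 and 51462 CPM on the denervated side and between 46519 and 48278 CPM on the normal side. The 6 suprabasal markers summed to 7383 to 9603 CPM in denervated and 9003 to 9373 CPM in normal libraries. Markers of other cells were low: 6 fibroblast markers summed to 1.08 to 1.82 CPM on the denervated and 1.62 to 4.44 CPM on the normal side, with Lum at 0 counts everywhere. The 5 endothelial markers summed to 0.861 to 1.31 CPM in denervated and 0.413 to 1.57 CPM in normal libraries, with Cdh5 and Emcn at 0. The 5 Schwann cell markers summed to 1.08 to 1.38 CPM in denervated and 0.715 to 2.76 CPM in normal libraries, with Cdh19 at 0. The 6 immune markers summed to 80.2 to 101.7 CPM in denervated and 57.9 to 97.7 CPM in normal libraries. In each animal the denervated library had the higher immune sum, with 80.2, 91.4 and 101.7 CPM in the denervated and 75.5, 57.9 and 97.7 CPM in the normal libraries of animals 890, 892 and 899. None of the 5 tested immune markers passed, and Cd74 (log2 fold change 0.28) and Cd3e (0.92) had an unadjusted p below 0.05. In each animal the denervated library had the lower fibroblast sum. The 5 melanocyte markers summed to 12.7 to 24.1 CPM in denervated and 16.9 to 19.8 CPM in normal libraries, with Mlana at 0. Their part in the results below was not tested. In sorted bulk RNA, fewer cells that express a gene and less RNA per cell cannot be told apart.

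Denervated against normal skin, with each animal's sides compared, showed 3 changed feedback genes that did not move in 1 direction. Phlda1, a protein with a pleckstrin homology-like domain whose mRNA serves in human tumour cells as a read-out of the ERK pathway, rose 1.69-fold. Dusp6, a cytoplasmic phosphatase selective for ERK, rose 1.52-fold. Spry1, a Sprouty inhibitor of receptor tyrosine kinase signalling, fell, with a level 1.64-fold lower. The other 7 genes did not pass the test, which was edgeR's quasi-likelihood test with the animal as a block and Benjamini-Hochberg adjustment over all tested genes.

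The 3 calls among 10 genes stand against 3.46% of all 12310 tested genes called in the same fit, 2.88% higher and 0.577% lower. The 10 genes were chosen with earlier results of these data known, so this share and those below only describe them. At an unadjusted p below 0.05 stood 6 of the 10 genes, against 18.2% of all genes. The median log2 fold change was 0.16 over the 10 genes and −0.02 over all tested genes. Without the animal block edgeR called none of the 10 and 0% of all genes, and 4 of the 10 had an unadjusted p below 0.05 there, against 12.5% of all genes (1537 genes). DESeq2 with the block called none of the 10, against 7.53% of the genes to which it gave an adjusted p, with adjusted p = 0.0606 for Phlda1, 0.0667 for Dusp6 and 0.265 for Spry1. DESeq2 without the block called Phlda1 and Dusp6, against 6.29% of genes, and limma on log2(TPM + 1) called none, against 0.00843%. At an unadjusted p below 0.05, DESeq2 with the block and limma each counted 5 of the 10, against 8.29% of all genes in DESeq2 and 15.6% in limma. DESeq2 gave no adjusted p to Dusp4 and Spry4 in either fit, nor to Spry2 without the block. Limma did not test Spry4, which averaged 0.403 TPM. Of these tools only edgeR with the pairing of sides called all 3 genes. With all 6 libraries kept, the log2 fold change ran over the alternatives from 0.54 to 0.62 for Dusp6, from 0.70 to 0.78 for Phlda1 and from −0.77 to −0.69 for Spry1.

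In the order of animals 890, 892 and 899, Dusp6 (chromosome 10, 99263231 to 99267489, plus strand, mm10) stood at 391, 275 and 297 CPM in the denervated libraries and at 191, 225 and 212 CPM in the normal libraries. Every denervated library lay above every normal library, and the widest gap within an animal was that of animal 890. The means were 321 ± 61.9 CPM on the denervated side and 209.6 ± 16.9 CPM on the normal side (SD, n = 3 each, as for all means here), with a log2 fold change of 0.60 ± 0.11 SE (edgeR adjusted p = 0.0136). Without animal 890 the log2 fold change of Dusp6 was 0.39, still called.

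For Phlda1 (chromosome 10, 111506286 to 111508645, plus strand) the denervated libraries held 171, 111 and 119 CPM and the normal libraries 69.7, 84.8 and 79.1 CPM. Again the sides did not overlap, and the 6 libraries fell in the same order for Phlda1 as for Dusp6, the denervated library of animal 890 highest and the normal library of animal 890 lowest. The means were 134 ± 32.5 CPM on the denervated side and 77.8 ± 7.65 CPM on the normal side, with a log2 fold change of 0.76 ± 0.13 SE (edgeR adjusted p = 0.00985). This value was 0.49 without animal 890, again called. GENCODE places a noncoding gene, Gm28592, on the opposite strand within Phlda1 over 1088 bases. The kit keeps the strand, per the labels' protocols, but whether counting used it is not stated there, so reads of Phlda1 and Gm28592 cannot be told apart.

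Spry1 (chromosome 3, 37639947 to 37644598, plus strand) stood at 59.0, 47.1 and 89.6 CPM in the denervated libraries and at 145, 82.8 and 92.3 CPM in the normal libraries. Each animal had less Spry1 on its denervated side, although the sides overlapped and the animals differed widely. Within animals, denervated minus normal came to −1.30 (animal 890), −0.81 (animal 892) and −0.04 (animal 899) in log2 CPM. The means were 65.3 ± 21.9 CPM on the denervated side and 106.7 ± 33.5 CPM on the normal side, with a log2 fold change of −0.71 ± 0.16 SE (edgeR adjusted p = 0.0311). Spry1 stayed called without any one of the animals, at −0.42 without animal 890, −0.65 without animal 892 and −1.06 without animal 899. These fits hold fewer animals, so their p-values lean on the spread shared between genes. Without animal 890 the SE was 0.099, below the 0.16 of the full fit, although animals 892 and 899 differed widely. A gene of unknown coding potential, Gm42922, overlaps the start of Spry1 on the opposite strand over 710 bases, with the same limit.

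**Figure D1:**
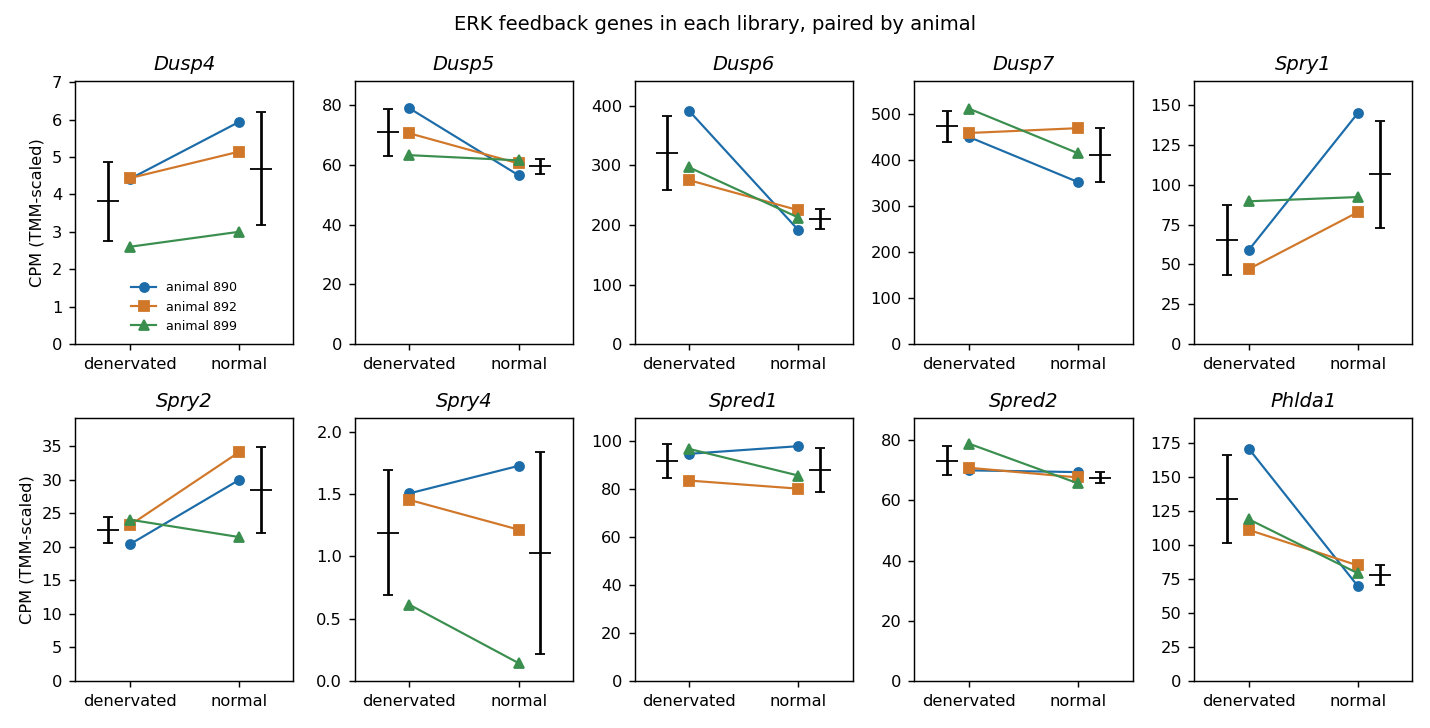
TMM-scaled CPM of each of the 10 genes (vertical axes from 0), with 1 point per library, lines joining the denervated and normal sides of an animal, and black bars for mean ± SD of 3 libraries. Dusp6 and Phlda1 are higher in every denervated library than in any normal library, while Spry1 is far lower on the denervated side in animals 890 and 892 and hardly lower in animal 899.

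The sequences before the starts of Dusp6 and Spry1, which moved in opposite directions, and of Dusp5, whose window held the one kind of motif found, are shown for comparison (RefSeq, GRCm38.p6, plus strand, written 5′ to 3′, cut off before the GENCODE gene start). RefSeq windows were at hand for 7 of the 10 genes, namely Dusp5, Dusp6, Dusp7, Spred1, Spred2, Spry1 and Spry2. Capitals mark matches to the CArG box, the binding motif of the serum response factor Srf, and lower case marks all other bases.
Dusp6, chr10:99262981-99263230: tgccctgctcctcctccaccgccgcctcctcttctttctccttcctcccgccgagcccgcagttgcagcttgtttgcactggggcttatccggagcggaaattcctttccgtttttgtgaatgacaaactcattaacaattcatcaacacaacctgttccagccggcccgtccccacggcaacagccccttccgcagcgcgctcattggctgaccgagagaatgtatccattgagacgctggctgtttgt
Spry1, chr3:37639697-37639946: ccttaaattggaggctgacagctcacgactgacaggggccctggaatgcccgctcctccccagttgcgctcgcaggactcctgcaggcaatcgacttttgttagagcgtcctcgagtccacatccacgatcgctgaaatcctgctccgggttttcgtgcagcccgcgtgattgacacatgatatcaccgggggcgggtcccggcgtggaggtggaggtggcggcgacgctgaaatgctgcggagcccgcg
Dusp5, chr19:53528895-53529108: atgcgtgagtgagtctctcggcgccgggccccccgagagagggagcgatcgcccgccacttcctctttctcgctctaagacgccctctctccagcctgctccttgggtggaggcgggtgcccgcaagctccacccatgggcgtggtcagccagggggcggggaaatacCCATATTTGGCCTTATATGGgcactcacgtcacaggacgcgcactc

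In the 250 bases before the RefSeq start, searched on both strands, none of the 7 windows held CCGGAAG (an ETS motif), TGANTCA (AP-1) or TGACGTCA (the cAMP response element). Among all 32851 windows in the table, 6.91%, 6.75% and 1.55% held these motifs, in that order. The CArG box was added to the search after the windows had been seen. It occurred in the window of Dusp5 alone, as CCATATTTGG starting 82 bases before the RefSeq start and CCTTATATGG directly after it, and in 1.47% of all windows. Matches and missing matches describe these letters in these windows only.

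Among the remaining phosphatases, Dusp5, a nuclear phosphatase selective for ERK, stood at 78.9, 70.5 and 63.2 CPM in the denervated and 56.5, 60.5 and 61.5 CPM in the normal libraries. The sides did not overlap, yet by a narrow gap in animal 899, and Dusp5 did not pass (log2 fold change 0.25 ± 0.09 SE, edgeR adjusted p = 0.167). Single animals moved it both ways: it was 0.35 and called without animal 899 (edgeR adjusted p = 0.0333) and 0.13 without animal 890 (edgeR adjusted p = 0.603). Dusp5 lies on chromosome 19 from 53529109 to 53542431 on the plus strand, with an antisense gene over its first 547 bases and the same limit.

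Dusp7, a cytoplasmic ERK phosphatase closely related to Dusp6, (chromosome 9, 106368632 to 106375724, plus strand) stood at 450, 459 and 512 CPM in the denervated and 352, 469 and 415 CPM in the normal libraries. It was higher on the denervated side in animals 890 and 899 and slightly lower in animal 892, with overlapping sides. Its log2 fold change was 0.21, with a 95% interval from 0.02 to 0.40 (edgeR adjusted p = 0.233), and it was 0.14 without animal 890 and 0.35 without animal 892, not called in either case. Dusp4 (chromosome 8, 34807297 to 34819894, plus strand), a nuclear phosphatase that acts on ERK and on the stress-activated kinases, was low, at 4.41, 4.44 and 2.603 CPM in the denervated and 5.94, 5.14 and 3.003 CPM in the normal libraries. The lower level was on the denervated side in each of the 3 animals, but the sides overlapped and the 95% interval ran from −0.79 to 0.22 on the log2 scale (edgeR adjusted p = 0.560).

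Of the other Sprouty genes, Spry2 (chromosome 14, 105891947 to 105896819, minus strand), which binds the ubiquitin ligase Cbl, stood at 20.3, 23.2 and 24.0 CPM in the denervated and 29.9, 34.1 and 21.4 CPM in the normal libraries. Like Spry1 it was lower on the denervated side in animals 890 and 892, but in animal 899 it was slightly higher. The log2 fold change was −0.32 ± 0.14 SE (edgeR adjusted p = 0.241). Without animal 899 it was −0.56 and called (edgeR adjusted p = 0.00971), but it was −0.21 without animal 890 and −0.18 without animal 892 (edgeR adjusted p = 0.507 and 0.792). Spry4 was close to the detection floor, with 14, 20 and 8 counts in the denervated and 46, 26 and 2 counts in the normal libraries. Its 95% interval, from −0.72 to 1.40 on the log2 scale, covers large differences in either direction, and the estimate lay between 0.03 and 0.70 with single animals left out. A count of 3 corresponded to 0.218 to 0.323 CPM in the denervated and 0.113 to 0.214 CPM in the normal libraries, for counting error only.

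The Spred genes encode relatives of Sprouty that bind Ras pathway proteins, Spred1 acting together with neurofibromin. Spred1 lies on chromosome 2 from 117121374 to 117182279 and Spred2 on chromosome 11 from 19924375 to 20024026, both on the plus strand. Spred1 stood at 94.7, 83.6 and 96.8 CPM in the denervated and 97.9, 80.2 and 85.7 CPM in the normal libraries. Spred2 stood at 70.0, 70.8 and 78.8 CPM in the denervated and 69.4, 67.6 and 65.6 CPM in the normal libraries. The sides overlapped for Spred1 and were separated by a narrow gap for Spred2. The 95% intervals of the log2 fold change were narrow, from −0.11 to 0.23 for Spred1 and from −0.07 to 0.29 for Spred2, with edgeR adjusted p = 0.728 and 0.506. At the depth of these libraries a change of the size seen for Dusp6 lay outside both intervals.

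**Figure D2:**
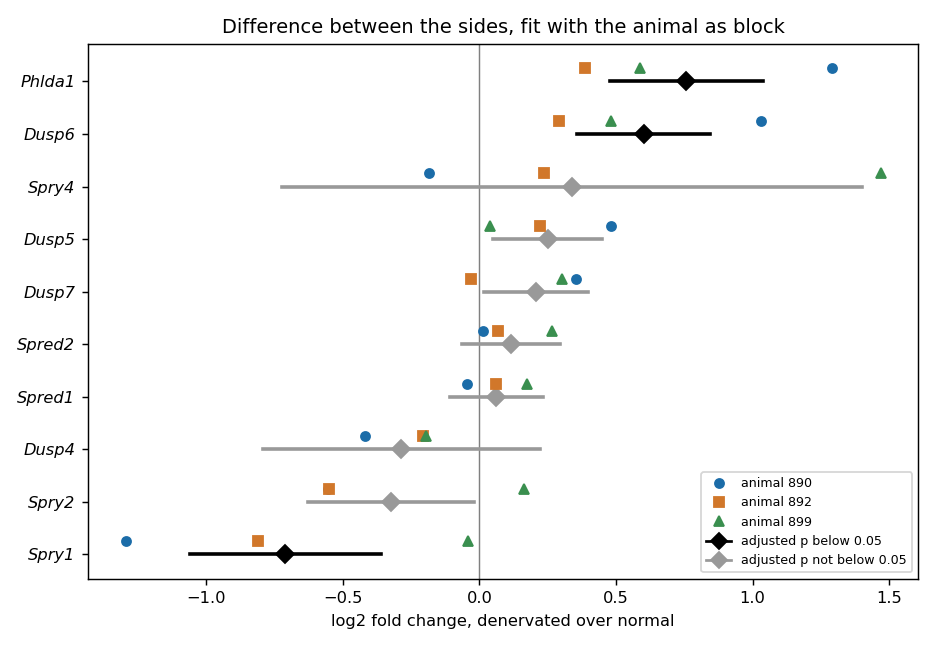
Log2 fold change of denervated over normal from the fit with the animal as block (diamonds, with 95% intervals) and the log2 difference within each animal (coloured points, drawn above the line). Phlda1 and Dusp6 (0.76 and 0.60) and Spry1 (−0.71) are drawn in black as called; animals 890 and 892 coincide at −0.55 for Spry2.

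Counted over the group, 6 of the 10 genes moved in the same direction in 3 of 3 animals, namely Dusp5, Dusp6, Spred2 and Phlda1 higher and Dusp4 and Spry1 lower, against 40.7% of all tested genes. The libraries of the denervated and normal sides did not overlap for 4 of them, against 19% of all tested genes. Single animals set the size of the changes. Animal 890 had the largest difference of the 3 animals, in either direction, for Dusp6, Phlda1, Spry1, Dusp5, Dusp4 and Dusp7. For Spry2 animal 890 was about level with animal 892. Animal 890 also had the largest gap in library size, 9610071 counts on the denervated and 26167593 on the normal side. With all libraries thinned to 9610071 counts, the log2 fold changes were 0.59 for Dusp6, 0.75 for Phlda1 and −0.69 for Spry1, and the same 3 genes were called. The 3 genes were also called without animal 890 (against 3.11% of all genes) and without animal 892 (2.01%), and without animal 899 they were joined by Dusp5 and Spry2 (7.74%). These fits hold fewer animals and lean on the spread shared between genes, so their calls are no firmer than those of the full fit.

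Between the animals, with the side as covariate, edgeR called none of the 10 genes, against 3.78% of all tested genes. At an unadjusted p below 0.05 were Spry1, Spry4 and Dusp4 (edgeR adjusted p = 0.173, 0.187 and 0.220), 3 of the 10 against 15.5% of all genes. Averaged over both sides, Spry4 stood at 1.62, 1.34 and 0.378 CPM and Dusp4 at 5.17, 4.79 and 2.80 CPM in animals 890, 892 and 899, so both were lowest in animal 899.

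Compared per transcript length, Dusp7 and then Dusp6 had the highest levels of the 10 genes on both sides. On the denervated side Dusp7 averaged 324 ± 30.9 TPM, Dusp6 211 ± 37.1, Phlda1 148 ± 34.0 and Dusp5 129.9 ± 13.4 TPM (SD, n = 3). There Dusp7 was apart from Dusp6, and Phlda1 overlapped with Dusp6 above it and with Dusp5 below it. On the normal side Dusp7 averaged 282 ± 25.4, Dusp6 139 ± 7.76, Dusp5 108.6 ± 4.11, Spry1 90.5 ± 31.0 and Phlda1 87.8 ± 5.87 TPM. Spry1 overlapped there with its neighbours Dusp5 and Phlda1, while Dusp7, Dusp6 and Dusp5 were apart from each other. Spry1 averaged 54.4 ± 20.7 TPM on the denervated side, where it overlapped with Spred2. Spred2 averaged 45.9 ± 5.71 TPM on the denervated and 44.4 ± 1.41 TPM on the normal side, and Spred1 31.8 ± 3.75 TPM on the denervated and 30.5 ± 4.07 TPM on the normal side. Spry2 averaged 20.5 ± 2.65 TPM on the denervated and 26.2 ± 5.99 TPM on the normal side. Spred1 and Spry2 overlapped on the normal side only. Dusp4 lay far below, at 2.71 ± 0.605 TPM on the denervated and 3.50 ± 1.195 TPM on the normal side. Spry4 was lowest, at 0.425 ± 0.166 TPM on the denervated and 0.381 ± 0.304 TPM on the normal side.

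**Figure D3:**
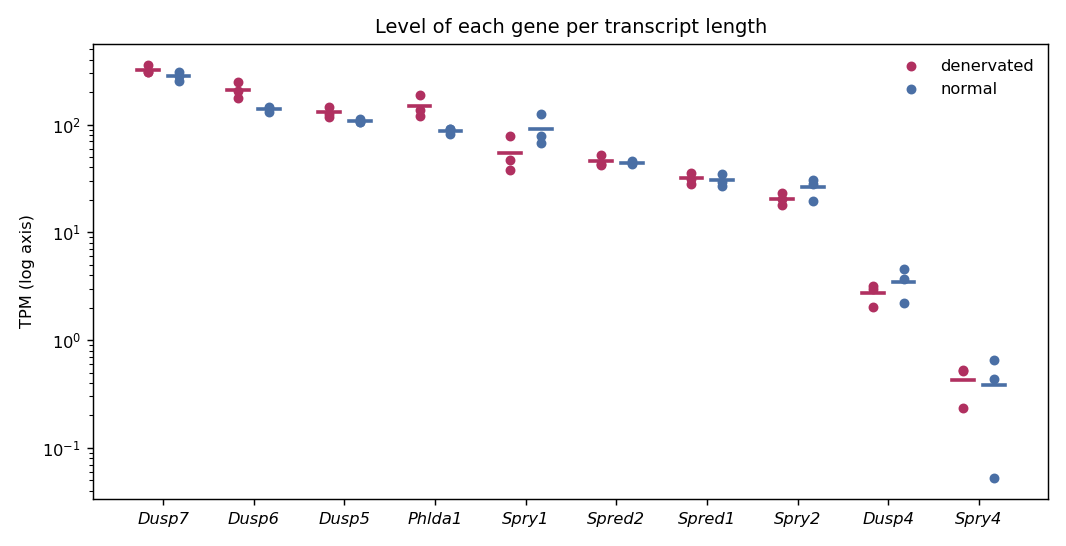
TPM of each gene on a log axis, with points for libraries and bars for the mean of 3 denervated (left) and 3 normal (right) libraries. The genes span from about 324 TPM for Dusp7 to 0.425 TPM for Spry4 on the denervated side, and Spry1 is the gene whose libraries scatter most among the abundant ones.

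Around the feedback genes, the pathway was described through 8 further lists, of which 112 genes were tested. Of these, 10 rose and 1 fell, against 2.88% and 0.577% of all tested genes, and their median log2 fold change was 0.03. These lists, too, were chosen with earlier results of these data known, so the shares only describe them. The split between higher and lower calls changed with the setting. Without animal 899, 13 pathway genes were called higher and 10 lower, and with no filter on low counts 14 higher and 7 lower. The split moved over all genes too, from 355 higher and 71 lower in the main fit. It was 671 higher and 305 lower of 12614 without animal 899, and 692 higher and 295 lower of 17311 with no filter. Of 13 tested growth factor ligands, 3 rose, namely Nrg1, Epgn and Tgfa. All 3 belong to the ErbB family, as do most of the tested ligands. Ereg and Areg, of the same family, were lower in 3 of 3 animals without passing (log2 fold change −0.39 and −0.36). Nrg1 averaged 71.7 ± 16.9 CPM on the denervated and 36.0 ± 11.5 CPM on the normal side. Epgn averaged 506 ± 155 CPM in denervated and 367 ± 70.7 CPM in normal cells, and Tgfa 113 ± 28.0 CPM in denervated and 83.7 ± 8.71 CPM in normal cells. Of 11 tested receptor genes, Egfr, the receptor of Epgn and Tgfa, rose to 326 ± 16.4 CPM in denervated cells, against 264 ± 11.2 CPM in normal cells. Fgfr3, a receptor for FGFs, fell to 294 ± 24.0 CPM in denervated cells, against 376 ± 29.0 CPM in normal cells. This call of Fgfr3 was lost without animal 890 or 892, on estimated counts (edgeR adjusted p = 0.0559) and on the thinned counts (edgeR adjusted p = 0.0551).

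Between receptor and ERK no gene passed in the main edgeR fit, while 3 adaptor and Ras genes and 1 gene of the cascade had an unadjusted p below 0.05. Of 16 tested adaptor and Ras genes, Shoc2, a scaffold that promotes Raf activation, came closest (log2 fold change 0.39 ± 0.10 SE, edgeR adjusted p = 0.0606), followed by the phosphatase gene Ptpn11 (0.20 ± 0.07 SE). Shoc2 was called higher without animal 899, with no filter on low counts, and in DESeq2 with and without the block. Of 10 genes of the kinase cascade, Araf (−0.26 ± 0.08 SE, edgeR adjusted p = 0.0973) and the scaffold gene Iqgap1 (0.17 ± 0.09 SE) had the smallest p. Of 19 other inhibitors, Rgs2, a regulator of G protein signalling, rose to 124.8 ± 0.700 CPM in denervated cells, against 99.7 ± 4.43 CPM in normal cells. Rasal1, a Ras GTPase-activating protein, stood at 1.49 ± 0.318 CPM in denervated and 3.07 ± 0.465 CPM in normal cells and did not pass (edgeR adjusted p = 0.105). In all, 5 of the 19 had an unadjusted p below 0.05, against 18.2% of all tested genes. Rgs2 and Rasa2 were higher, and Rasal1, Rasa3 and Lrig3 were lower. Lrig3 was called lower without animal 899 and with no filter on low counts, and Lrig1 was called lower without animal 899.

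Of 9 tested relatives of the 10 genes none passed in the main edgeR fit, and 1 had an unadjusted p below 0.05. Those with the smallest p were Dusp10, a phosphatase of the stress-activated kinases (39.9 ± 4.57 CPM in denervated and 30.8 ± 2.38 CPM in normal cells, edgeR adjusted p = 0.0935), and Dusp1, an immediate early phosphatase (1339.6 ± 261 CPM in denervated and 1568 ± 343 CPM in normal cells, edgeR adjusted p = 0.457). Dusp10 was called higher without animal 892 and with no filter on low counts, and Dusp1 was called lower without animal 899. Of 10 effectors, Srf, the transcription factor that binds CArG boxes, rose to 367 ± 65.1 CPM in denervated cells, against 278 ± 21.5 CPM in normal cells. Its partner Elk4 did not pass (log2 fold change 0.23 ± 0.08 SE, edgeR adjusted p = 0.155).

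Of 24 other tested response genes, 4 rose and none passed as lower. Those that rose were Fosl1, an AP-1 subunit (889 ± 176 CPM in denervated and 567 ± 45.5 CPM in normal cells), Trib1, a pseudokinase (389 ± 72.5 CPM denervated, 269 ± 52.6 CPM normal), the ephrin receptor gene Epha4 (265 ± 28.5 CPM denervated, 193 ± 16.0 CPM normal) and the transcription factor gene Egr3 (243 ± 42.3 CPM denervated, 189 ± 15.1 CPM normal). Other known ERK targets, named here after their values were seen, did not pass. Among them the log2 fold change was 0.15 ± 0.19 SE for Etv4, 0.12 ± 0.13 SE for Etv5, 0.01 ± 0.08 SE for Ccnd1, −0.11 ± 0.15 SE for Egr1 and −0.36 ± 0.13 SE for Fos. The immediate early genes Ier2 (−0.33 ± 0.12 SE), Ier3 (−0.31 ± 0.13 SE) and Zfp36 (−0.37 ± 0.15 SE), with Fos, had an unadjusted p below 0.05 on the lower side, each lower in 2 of 3 animals. So did Lif, described below. On the higher side Plaur (0.75 ± 0.26 SE), Epha2 (0.19 ± 0.08 SE) and Mcl1 (0.17 ± 0.08 SE) had an unadjusted p below 0.05 without passing, each higher in 3 of 3 animals. In all, 12 of the 24 response genes had an unadjusted p below 0.05, against 18.2% of all tested genes. Without animal 899, 6 response genes were called lower, namely Egr1, Fos, Ier2, Ier3, Junb and Zfp36, beside 5 called higher. Of all 12614 genes tested in that fit, 305 were called lower and 671 higher. Each of the 11 called genes of these lists moved the same way in 3 of 3 animals, which a test within animals favours by itself. The log2 fold changes of the 10 that rose ran from 0.30 for Egfr (edgeR adjusted p = 0.0420) to 1.02 for Nrg1 (edgeR adjusted p = 0.00196). Of the 11, 7 lost the call without animal 890, namely Egfr, Egr3, Epgn, Fgfr3, Rgs2, Srf and Tgfa. Without animal 892, 4 of those 7 lost it as well, namely Egfr, Fgfr3, Rgs2 and Tgfa. Nrg1, Fosl1, Trib1 and Epha4 were called with each animal left out in turn, though these fits hold fewer animals.

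**Figure D4:**
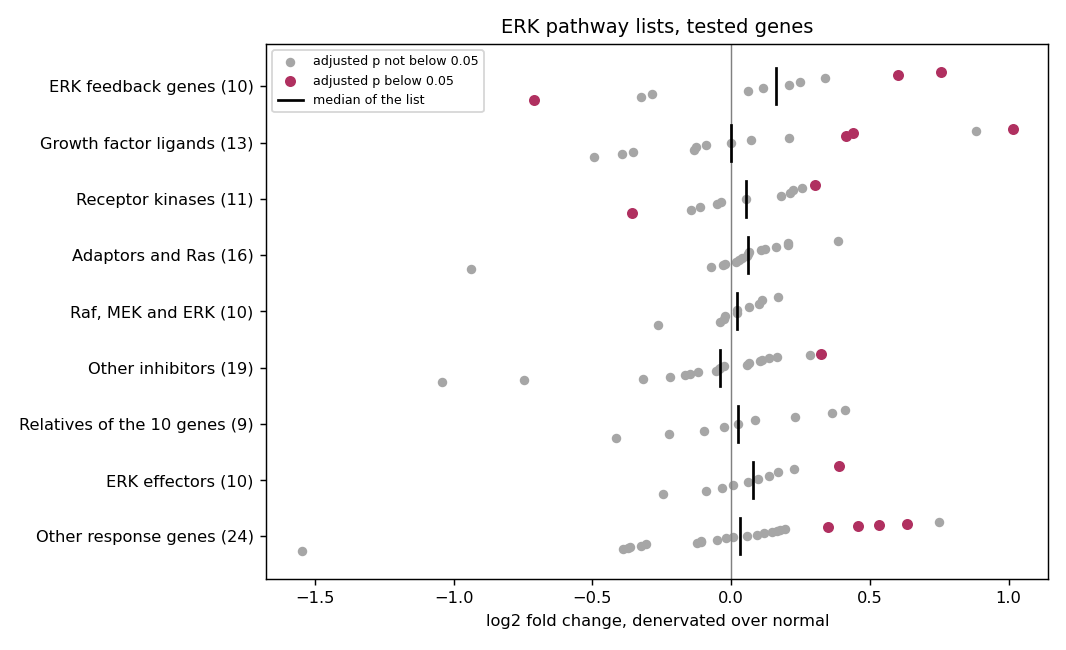
Log2 fold change of denervated over normal for each tested gene of the 10 feedback genes and of 8 other lists (number of tested genes in brackets), with called genes in red and a black bar at each list's median. Called genes lie on the right in 5 of the other lists, while Fgfr3 (−0.36) and Spry1 (−0.71) are called on the left.

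Outside the 10 genes, the 5 genes whose log2 CPM was most like that of Dusp6 over the 6 libraries were Dcaf10, Klf16, Fam91a1, Tmem186 and Trmt61a, with Pearson's r from 0.985 to 0.988. They were picked as the highest of 8734 genes averaging 10 CPM or more, and libraries from 1 animal are not independent, so these values only describe the 6 libraries. None of the 5 passed the test between the sides, with log2 fold changes from 0.18 for Dcaf10 to 0.48 for Trmt61a.

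In the authors' deposited table, with its own fit, the log2 fold change of denervated over control was 0.61 for Dusp6, 0.76 for Phlda1 and −0.72 for Spry1. The adjusted p-values of the authors' deposited table were 0.0682, 0.0614 and 0.264, in the same order, so none of the 3 was below 0.05 there.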

How the data were processed

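The members and gene lists were chosen with earlier results of these data known. Poly(A) RNA of 6 libraries was measured. Per the submitters' processing notes, STAR 2.6.1a, Salmon 0.11.2 and mm10 were used, with no role given to each. The sources used here give neither annotation nor strand setting. The deposited matrix holds raw counts, and 26 of its row names look like dates made by a spreadsheet. Per the file headers, each library's deposited file holds estimated counts and TPM, with TPM also in a table of all libraries. The authors' comparison table holds log2 fold changes, p-values, the test score and mean normalised signal, and other columns of lengths per the file headers.

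The main test was edgeR 4.0.16 (R 4.3.3) quasi-likelihood on counts, with TMM factors, filterByExpr (minimum count 10, minimum total 15) and the animal number of the title as block, adjusted over all 12310 tested genes and called below 0.05. The pairing comes from the labels' protocols, by which each mouse gave both sides. Deviations from group means correlated at 0.356, 0.361 and 0.443 for same-animal libraries. SE was derived from the log2 fold change and F, and 95% intervals use the t distribution of the fit. Levels in CPM are TMM-scaled. Differences within an animal are log2 CPM with a prior count of 2. Libraries within a side differed beyond sampling noise (chi-square over degrees of freedom 12.8 or more). The common biological coefficient of variation was 0.0920. DESeq2 1.42.0 and limma 3.58.1 were alternatives, limma on log2(TPM + 1) where TPM averaged 1 or more. Fold changes of low genes are understated on that scale. Estimated counts were rounded. The edgeR fit was tested on simulated data. No source says whether the mice were handled as separate batches. With the animal as block, p-values measure how the side difference varies over these 3 mice, with information on spread shared between genes. All 10 members are named. From each other list the called genes were named (at most 6), and, where fewer than 2 passed, those with the smallest p up to 2. Coordinates are from GENCODE M21, and promoter windows from RefSeq.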

Additional observations from a re-analysis of the deposited data

How the results depend on the processing

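Of 138 re-estimates of the members' log2 fold changes under all alternatives, 122 kept direction and side of the threshold, 13 lost a call, 2 gained one and 1 reversed. Without the replicate block edgeR called 0 of the 10 genes, 0 of all genes and 0 pathway genes, against 3, 426 and 11 with it. DESeq2 with the replicate block called 0 of the 10 genes. Limma, which did not test Spry4, called 0 of the 10, 1 gene in all and 0 pathway genes with either pseudocount, 1 or 0.1. Library totals gave 6 pathway genes, and 59.3% of all called genes were then higher, against 83.3% with TMM factors. With no filter 987 genes and 21 pathway genes (14 higher, 7 lower) were called, and 1 of the 10 genes, Spry1, differed between animals. Leaving out each animal gave 3 to 5 of the 10 genes, 248 to 976 genes in all and 7 to 23 pathway genes, the most of each without animal 899, where 68.8% of all called genes were higher. Thinning to the smallest library, chosen after seeing the data, turned Spry4 to −0.042 and kept the 3 calls. The cause of these shifts was not tested. Counts of 2 to 46 limit what can be said of Spry4.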

Other observations

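A few genes around the pathway moved the other way from Nrg1, Epgn and Tgfa without passing the main test, and are named here after their values were seen. Ereg, the ErbB ligand epiregulin, stood at 44.0, 40.8 and 65.2 CPM in the denervated libraries of animals 890, 892 and 899, against 72.3, 42.1 and 87.1 CPM in the normal libraries. Every animal had less Ereg on its denervated side, hardly so animal 892 (log2 fold change −0.39 ± 0.11 SE, edgeR adjusted p = 0.0700). Ereg was called lower without animal 892 and with no filter on low counts. Areg, the related ligand amphiregulin, was lower in 3 of 3 animals as well (log2 fold change −0.36 ± 0.13 SE, edgeR adjusted p = 0.158).

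Lif, an interleukin-6 family cytokine, stood at 0.538, 0.436 and 0.689 CPM in the denervated and 2.18, 1.03 and 1.86 CPM in the normal libraries. The sides did not overlap, at levels close to the detection floor, and Lif did not pass (log2 fold change −1.55 ± 0.47 SE, edgeR adjusted p = 0.0927).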
